A study of Homo sapiens with 10 samples.

Results

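The nuclear-encoded subunits of the respiratory chain and of the ATP synthase were followed in TREx293 cells that express MN1, BEND2 or one of 2 fusion proteins. The members were taken by gene symbol: genes named NDUFA, NDUFB, NDUFC, NDUFS or NDUFV with a number, SDHA to SDHD, genes beginning with UQCR, the numbered COX4 to COX8 subunits, and genes beginning with ATP5. The symbols matched 142 rows of the count table. After 56 pseudogenes were left out, 86 of the 58216 genes in the table remained: 36 of complex I, 4 of complex II, 9 of complex III, 17 of complex IV and 20 of complex V. NDUFA4 carries a complex I name and was counted with complex IV, where its protein is now placed. ATP5IF1, the inhibitor of the ATP synthase, and ATP5S, a coupling factor B-like protein, were counted with complex V.

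The respiratory chain passes electrons from NADH (complex I) and succinate (complex II) through coenzyme Q, complex III and cytochrome c to oxygen at complex IV. Complexes I, III and IV pump protons across the inner mitochondrial membrane, and complex V, the ATP synthase, uses that gradient to make ATP. Mitochondrial DNA encodes a few core subunits of complexes I, III, IV and V. All other subunits, and the whole of complex II, are transcribed in the nucleus and imported. Many of these nuclear genes are expressed together in dividing cells, and their promoters are known for sites of NRF1, ETS-family factors such as GABP, and YY1.

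TREx293 is a human embryonic kidney (HEK293) line with a tetracycline repressor. Tagged cDNAs (3×HA epitope) in pcDNA5/FRT/TO were brought in together with pOG44, the recombinase plasmid, and blasticidin and hygromycin selected the stable lines. The series is about MN1-BEND2 as an activator of transcription. The 5 groups of 2 libraries were CTRL (genotype WT), MN1 knockin, BEND2 knockin, MN1-BEND2 knockin and MN1-CXXC5 knockin. Doxycycline induced the constructs. Its dose and time, whether CTRL cells received it or carried an empty vector, and whether a line was 1 clone or a pool are not given in the labels used here. Nothing in the labels tells whether a group's 2 libraries came from separate cultures, so p-values measure no more than how far these samples differ, which may be technical. In bulk RNA, fewer cells of a type and less RNA per cell cannot be told apart.

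The libraries held 15914424 to 26799613 counts. Levels are given in CPM, a gene's count per 1000000 counts of its library after TMM scaling, except for the marker sums in this paragraph, which are per 1000000 raw counts. MN1 stood at 328 and 324 CPM in the MN1 libraries, 290 and 290 in MN1-BEND2, 128 and 127 in MN1-CXXC5 and at most 5.38 in the other 4 libraries. BEND2 was at 389 to 407 CPM in the BEND2 and MN1-BEND2 libraries and at 0 to 0.573 CPM elsewhere. CXXC5 stood at 55.2 and 61.8 CPM in MN1-CXXC5 cells against 8.35 to 22.9 CPM in the rest, so construct reads followed the labels. The 7 HEK293 markers were detected in every library (862 to 1471 CPM summed). Markers of striated muscle and testis summed to at most 4.64 and 1.22 CPM, and blood markers to between 0.171 and 8.54 CPM. The 11 salivary and squamous markers summed to 95.1 CPM in CTRL replicate 1 and 85.2 CPM in MN1 replicate 1, against 0.572 to 2.63 CPM in the other 8. In those 8 libraries 3 to 9 of the 11 were at 0, against 2 of 11 in each of the 2 high libraries. Calls of named members that were lost without these 2 libraries are given with the counts of members.

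One feature that the choice by symbol did not use was promoter sequence. RefSeq (GRCh38.p14) gave a promoter for 62 of the 79 members with enough counts to test, searched over 250 bases before to 50 after the start on both strands. The ETS letters CCGGAAG were found in 19 of the 62 promoters (30.6%), against 10.7% of all 27305 promoters in the table. Those 27305 were not filtered by expression, unlike the 62, and promoters of other expressed genes were not compared. The YY1 letters AAGATGGCG were found in 8 (12.9% against 1.85%), and the NRF1 letters GCGCATGCG in 10 (16.1% against 2.10%). In 4 of these 10 the NRF1 letters went on with a C, which completes the palindrome (1.36% of all promoters). The ETS and YY1 letters share AAG, so that 1 stretch can match both. Of the 62 promoters, 30 held at least 1 of the 3, against 13.6% of all promoters. A match is a description, not a binding site. The 150 bases before the start are shown for 3 subunit genes that were higher with MN1 and lower with MN1-CXXC5, with the ETS letters (or their complement, CTTCCGG) in capitals. They lie at chr11:63974470-63974619 (COX8A, + strand), chr19:14572067-14572216 (NDUFB7, - strand) and chr12:120437963-120438112 (COX6A1, + strand).
COX8A: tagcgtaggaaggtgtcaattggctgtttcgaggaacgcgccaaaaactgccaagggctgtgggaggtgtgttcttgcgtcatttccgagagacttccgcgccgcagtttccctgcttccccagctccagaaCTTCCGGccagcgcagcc
NDUFB7: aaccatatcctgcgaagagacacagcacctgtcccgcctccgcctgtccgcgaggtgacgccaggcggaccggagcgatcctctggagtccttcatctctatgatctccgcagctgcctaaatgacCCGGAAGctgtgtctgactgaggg
COX6A1: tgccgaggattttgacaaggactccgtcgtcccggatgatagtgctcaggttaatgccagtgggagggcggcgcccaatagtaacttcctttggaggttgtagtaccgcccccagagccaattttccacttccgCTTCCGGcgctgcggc
The match stood 18 bases before the start in COX8A, 24 in NDUFB7 and 16 in COX6A1, in each case counted from the match's first base on the gene's strand. Members with the ETS letters had a median log2 fold change of 0.25 with MN1 against 0.32 for members without them, and -0.13 against -0.11 with MN1-CXXC5.

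Transcript base composition is the other sequence feature that bears on the results. The first 90 coding bases are shown for a pair of GC-rich and a pair of GC-poor members, with G and C in capitals, read from GENCODE v29 (GRCh38) principal transcripts.
ATP5F1D: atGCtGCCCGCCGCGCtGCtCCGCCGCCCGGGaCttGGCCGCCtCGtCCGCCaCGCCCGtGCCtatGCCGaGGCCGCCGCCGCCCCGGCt
NDUFB7: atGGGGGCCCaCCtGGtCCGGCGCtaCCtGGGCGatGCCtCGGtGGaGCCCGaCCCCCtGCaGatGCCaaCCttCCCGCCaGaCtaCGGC
NDUFA5: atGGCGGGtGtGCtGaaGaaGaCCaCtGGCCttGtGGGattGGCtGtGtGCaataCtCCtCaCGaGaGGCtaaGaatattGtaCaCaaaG
ATP5F1E: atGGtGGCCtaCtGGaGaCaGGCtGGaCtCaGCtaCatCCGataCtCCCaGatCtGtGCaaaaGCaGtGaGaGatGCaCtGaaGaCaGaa
G and C made up 81.1% of the stretch in ATP5F1D, 71.1% in NDUFB7, 50% in NDUFA5 and 51.1% in ATP5F1E. Over the whole coding sequence the shares were 68.3%, 65.9%, 42.5% and 45.1%, and over all annotated exons 67.6%, 65.0%, 36% and 38.7%.

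Summed over the 86 members, expression was higher in MN1 cells than in any other group. The sums were 7808 and 7813 CPM in CTRL cells, 9464 and 9447 with MN1, 8121 and 8222 with BEND2, 8677 and 8696 with MN1-BEND2, and 7660 and 7725 with MN1-CXXC5. The libraries of each group lay apart from those of the other 4 groups. Against the CTRL mean the ratio was 1.21 in MN1, 1.11 in MN1-BEND2, 1.05 in BEND2 and 0.985 in MN1-CXXC5 cells. By complex, the MN1 ratio ran from 1.12 (complex II) to 1.26 (complex IV), and the MN1-CXXC5 ratio from 0.955 (complex IV) to 1.06 (complex II). The group with the highest mean was MN1 for 51 of the 79 tested members, MN1-BEND2 for 15 and MN1-CXXC5 for 13. The lowest mean was that of MN1-CXXC5 for 39 members and of CTRL for 23.

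**Figure D1:**
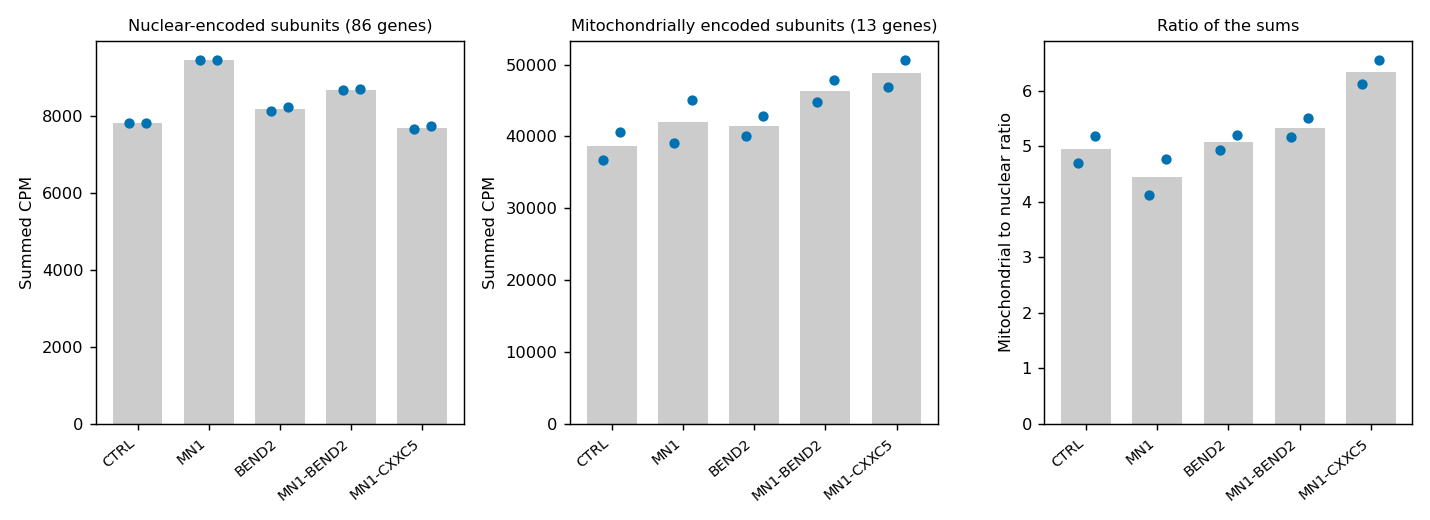
Summed CPM of the 86 nuclear-encoded subunits (left) and of the 13 mitochondrially encoded subunits (middle), and the ratio of the sums (right), by group. Points are libraries and bars are means of 2 libraries. The nuclear sum was highest with MN1 (9464 and 9447 CPM) and the ratio was highest with MN1-CXXC5 (6.12 and 6.56).

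Tested gene by gene with edgeR (a call is an adjusted p under 0.05 over 18127 genes), 79 members had enough counts and 7 did not. MN1 cells had 59 of 79 members higher than CTRL and 1 lower, where 21.6% of all genes were called higher and 21.4% lower, and the members' median log2 fold change was 0.28 against 0.00 over all genes. MN1-BEND2 cells had 45 higher and 7 lower (26.7% and 25.2% of all genes; medians 0.18 and 0.01). MN1-CXXC5 cells had 17 higher and 33 lower (19.2% and 25.1% of all genes; medians -0.04 and -0.03). BEND2 cells had 21 higher and 1 lower (6.71% and 7.46% of all genes; medians 0.08 and 0.00). The share of members called higher was therefore above the share of all genes in MN1, MN1-BEND2 and BEND2 cells and close to it in MN1-CXXC5 cells, where the share called lower was above it. These 4 comparisons share the CTRL libraries. Of the 79 tested members, 8 were called in none of the 4: ATP5ME, NDUFA3, NDUFA6, NDUFA7, NDUFC2, NDUFS4, SDHD and UQCRC2.

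With fewer libraries, fewer calls were made over all genes as well. The MN1 count was 54 higher without CTRL replicate 1 and MN1 replicate 1 (14.2% of all genes), and 55 to 57 with any 1 library of the comparison left out (16.7% to 17.3%). The BEND2 count was 10 higher without CTRL replicate 1 (3.27% of all genes), 12 without CTRL replicate 2 (2.92%), 9 without BEND2 replicate 1 (2.84%), 10 without BEND2 replicate 2 (2.94%), 9 without CTRL replicate 1 and MN1 replicate 1 (3.03%), and 5 by DESeq2 (1.91%). The MN1-BEND2 count of members lower was 4 without MN1-BEND2 replicate 2 (21.0% of all genes) and 4 by DESeq2 (18.2%). By DESeq2, 21 members were lower in MN1-CXXC5 cells (14.6% of all genes).

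Some calls of named members were lost without CTRL replicate 1 and MN1 replicate 1 together, with the edgeR adjusted p in brackets. In BEND2 cells these were NDUFS7 (0.196), NDUFA5 (0.106), NDUFB3 (0.129), COX5B (0.0679), COX8A (0.0628), ATP5IF1 (0.198) and ATP5MD (0.112). In MN1 cells they were NDUFA5 (0.166), UQCRB (0.258), UQCRC1 (0.0704) and UQCRHL (0.1), and in MN1-BEND2 cells NDUFA13 (0.132), COX4I1 (0.0737) and COX7C (0.125). In MN1-CXXC5 cells they were NDUFS1 (0.0553), UQCR10 (0.436), UQCRHL (0.0534) and COX7B (0.139). Between MN1-BEND2 and MN1 cells they were NDUFS6 (0.216), NDUFA13 (0.0864), NDUFB5 (0.051) and COX7B (0.136), and between MN1-CXXC5 and MN1 cells NDUFB3 (0.0582), SDHC (0.0752) and UQCRFS1 (0.265).

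**Figure D2:**
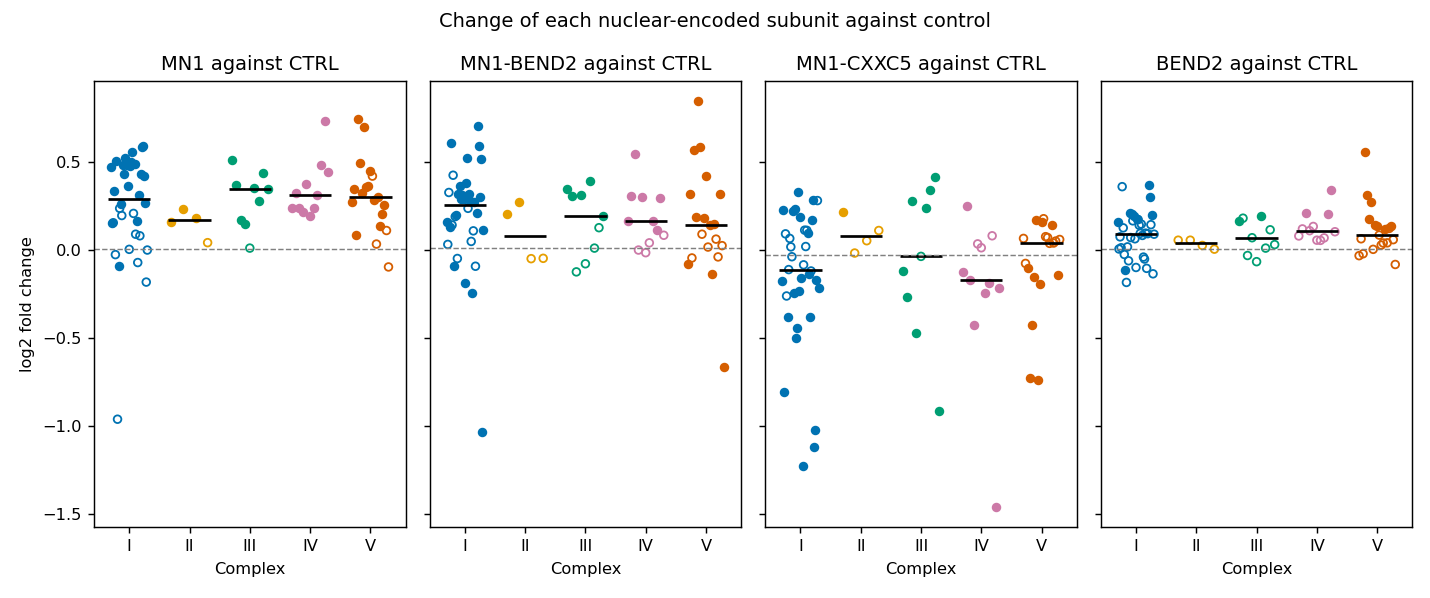
Log2 fold change against CTRL of each tested member except NDUFA6, in 4 panels by construct and grouped by complex I to V. Filled points passed an edgeR adjusted p of 0.05, black bars are medians of the tested members of a complex and the dashed line is the median of all genes. With MN1 the points of complex IV are all filled and above 0, and with MN1-CXXC5 the lowest point is COX8A at -1.46.

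Complex I oxidises NADH. With MN1, 22 of its 36 members were higher and 1 was lower (61.1% and 2.78%, against 21.6% and 21.4% of all genes). With MN1-BEND2 the counts were 21 and 4 (58.3% and 11.1%, against 26.7% and 25.2%). With MN1-CXXC5 they were 8 and 15 (22.2% and 41.7%, against 19.2% and 25.1%), so the share higher was close to that of all genes. With BEND2 they were 8 and 1 (22.2% and 2.78%, against 6.71% and 7.46%). The 7 nuclear-encoded catalytic core subunits bind the flavin and the iron-sulfur clusters. They had 5 higher and 0 lower with MN1, 4 and 2 with MN1-BEND2, and 1 and 5 with MN1-CXXC5. These few counts are to be read against the same shares of all genes.

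NDUFS7 (chromosome 19, 1383527 to 1395589 on GRCh38) carries the iron-sulfur cluster next to the quinone site. Its levels were 11.3 and 12 CPM in CTRL, 16.6 and 18.4 in MN1, 14.8 and 13.8 in BEND2, 17.2 and 17.8 in MN1-BEND2, and 5.73 and 4.98 in MN1-CXXC5 libraries. The MN1-CXXC5 libraries were the lowest and did not overlap with any other group. The small rise in BEND2 cells (0.30 ± 0.09, SE, edgeR adjusted p = 0.0435) was lost without either CTRL library or either BEND2 library (0.0874 to 0.253). The log2 fold change against CTRL was 0.59 ± 0.09 (SE, edgeR adjusted p = 0.000213) in MN1, 0.59 ± 0.09 (0.000121) in MN1-BEND2 and -1.12 ± 0.11 (5.48e-06) in MN1-CXXC5 cells. Exons of genes on the other strand cover 49.1% of its length, and the strand setting of the counting is not given, so reads of those genes cannot be told apart.

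NDUFB7 (chromosome 19, 14566078 to 14572062), an accessory subunit of the membrane arm whose promoter is printed above, had 30.7 and 31.3 CPM in CTRL, 42.6 and 45 in MN1, 34.2 and 36 in BEND2, 45.4 and 43.8 in MN1-BEND2, and 12 and 14.4 in MN1-CXXC5 libraries. MN1 and MN1-BEND2 libraries overlapped with each other and lay above the rest. The changes were 0.50 ± 0.06 (SE, edgeR adjusted p = 4.26e-05) in MN1, 0.52 ± 0.06 (1.37e-05) in MN1-BEND2 and -1.23 ± 0.08 (1.92e-07) in MN1-CXXC5 cells on the log2 scale.

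NDUFS6 (chromosome 5, 1801400 to 1816605), a zinc-binding accessory subunit of the NADH-oxidising module, was higher than CTRL in each of the other groups. It had 48.6 and 50.3 CPM in CTRL, 72.7 and 75.4 in MN1, 63.5 and 64.2 in BEND2, 79.2 and 81.8 in MN1-BEND2, and 58.7 and 61.8 in MN1-CXXC5 libraries. No pair of groups overlapped, and the order ran from CTRL through MN1-CXXC5, BEND2 and MN1 to MN1-BEND2. The changes against CTRL were 0.58 ± 0.04 (SE, edgeR adjusted p = 7.84e-07) in MN1, 0.37 ± 0.04 (0.00038) in BEND2, 0.70 ± 0.04 (4.49e-08) in MN1-BEND2 and 0.29 ± 0.04 (0.00022) in MN1-CXXC5 cells.

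NDUFS1, the largest core subunit, which carries several iron-sulfur clusters, went the other way in MN1-BEND2 cells. Its 125 and 122 CPM there lay below 146 and 146 in CTRL, 163 and 165 in MN1, 144 and 140 in BEND2 and 157 and 155 in MN1-CXXC5 libraries. It fell by 0.25 ± 0.03 on the log2 scale (SE, edgeR adjusted p = 3.98e-05) with MN1-BEND2 and rose by 0.16 ± 0.03 (0.00127) with MN1. The small rise in MN1-CXXC5 cells (0.09 ± 0.03, edgeR adjusted p = 0.0321) was lost with any 1 library of the comparison left out (0.0655 to 0.153) and had the opposite sign (-0.06) once GC content and length were modelled.

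NDUFA5, an accessory subunit of the quinone-binding arm, was the only member called lower in MN1 or in BEND2 cells, and its changes were small. Its libraries held 183 and 183 CPM in CTRL, 171 and 172 in MN1, 168 and 170 in BEND2, 172 and 172 in MN1-BEND2, and 190 and 192 in MN1-CXXC5. The log2 change was -0.10 ± 0.03 in MN1 and -0.12 ± 0.03 in BEND2 cells (SE, edgeR adjusted p = 0.0189 and 0.0188). These calls were lost with any 1 library of the comparison left out (edgeR adjusted p 0.0612 to 0.0851 in MN1 and 0.0746 to 0.128 in BEND2). The change in MN1-BEND2 cells (-0.09) had the opposite sign (0.10) once GC content and length were modelled.

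NDUFB3 and NDUFB5 are accessory subunits of the membrane arm. NDUFB3 rose from 45.4 and 46.1 CPM in CTRL to 61.9 and 65.6 in MN1, 52.2 and 52.3 in BEND2, 53.6 and 58.5 in MN1-BEND2 and 55.3 and 59.3 in MN1-CXXC5 libraries, and each group lay above CTRL. Its BEND2 call (log2 change 0.19 ± 0.05, SE, edgeR adjusted p = 0.0323) was lost without either CTRL library or either BEND2 library (0.108 to 0.143). NDUFB5 had 62.0 and 62.6 CPM in CTRL, 54.3 and 54.9 in MN1-BEND2 and 73.4 and 68.2 in MN1-CXXC5 libraries, which did not overlap. The fusion against fusion difference was -0.37 ± 0.05 (SE, edgeR adjusted p = 1.75e-05) on the log2 scale, and -0.14 with GC content and length modelled.

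A few complex I members were counted at very low levels. NDUFV2, a core subunit, was at 2.03 and 2.18 CPM in CTRL and 0.845 and 1.18 in MN1-BEND2 libraries, a log2 change of -1.03 ± 0.21 (SE, edgeR adjusted p = 0.00127). NDUFA13, an accessory subunit that also contributes to assembly, was at 1.72 and 1.84 CPM in CTRL and 3.11 and 2.35 in MN1-BEND2 libraries. Its call there (0.60 ± 0.21, SE, edgeR adjusted p = 0.0298) was lost without either CTRL library (0.117 and 0.0816) or MN1-BEND2 replicate 1 (0.212). Exons of other genes cover 28.4% of the length of NDUFV2 and 21.0% of NDUFA13 on the same strand, and how reads shared by genes were counted is not given in the sources used here. NDUFA6, named after its values were seen, had 481 and 10 counts in CTRL and 13 and 499 in MN1 libraries against 4 to 31 in the other 6. The libraries of a group disagreed, and no comparison of NDUFA6 passed the test.

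**Figure D3:**
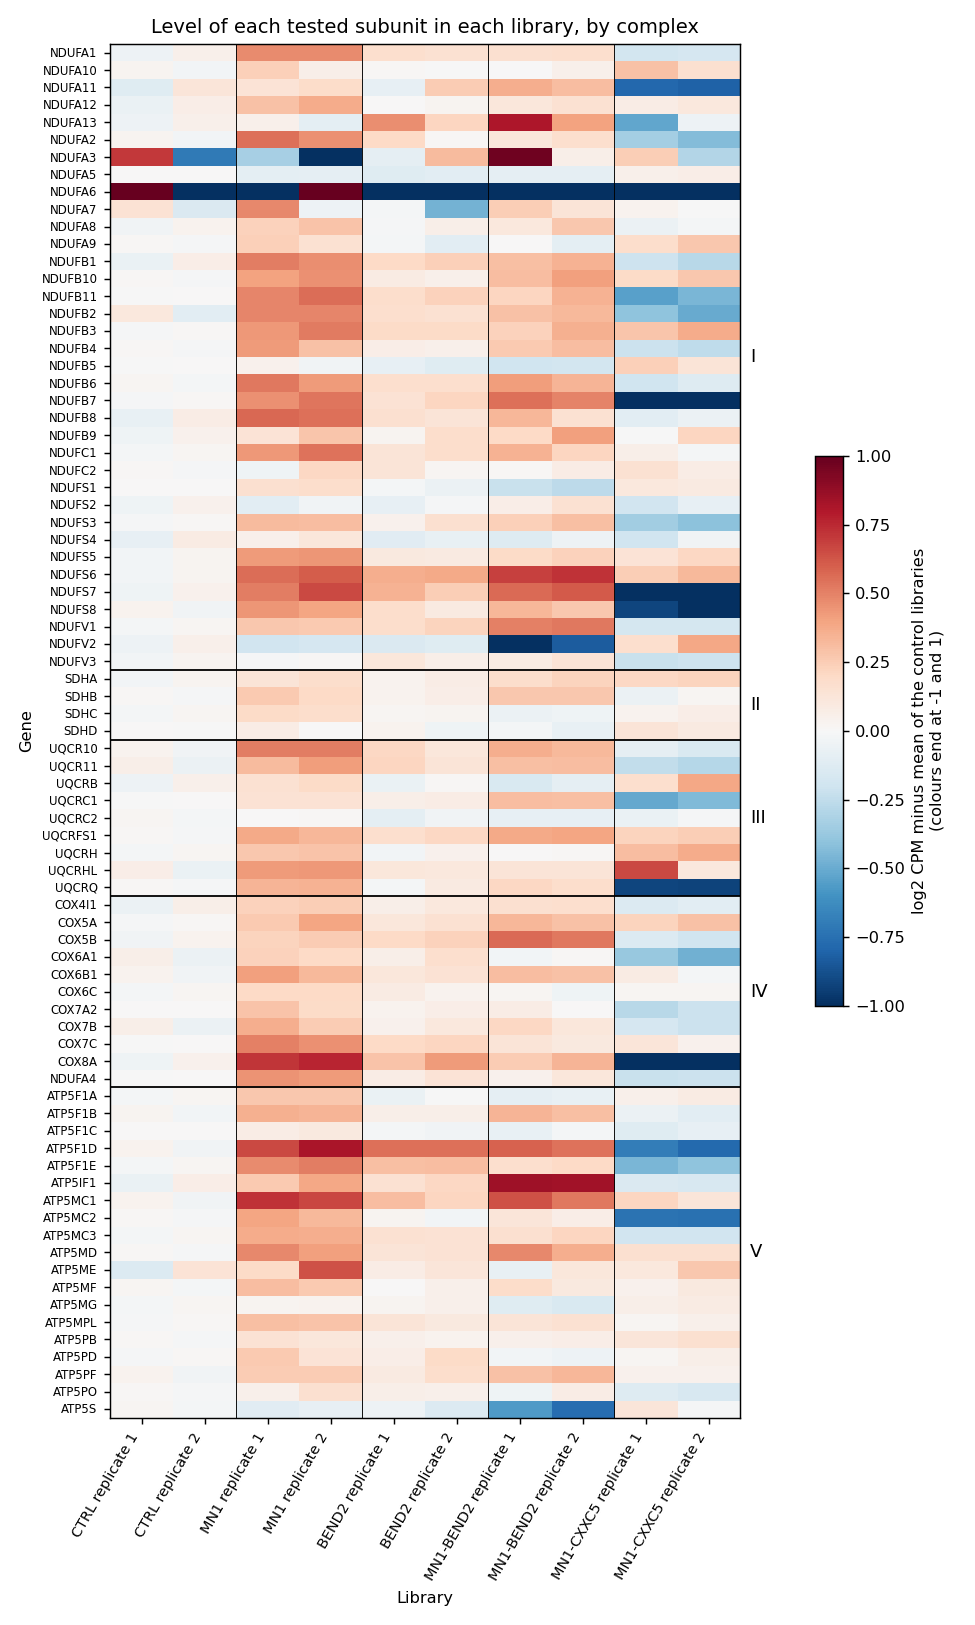
Level of each of the 79 tested members (rows, by complex) in each of the 10 libraries (columns), as log2 CPM minus the mean of the CTRL libraries; colours end at -1 and 1. The MN1 columns are mostly red, NDUFB7, NDUFS7, COX8A and UQCRQ are dark blue in the MN1-CXXC5 columns, and NDUFA6 differs between the libraries of CTRL and of MN1.

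Complex II, succinate dehydrogenase, is encoded wholly in the nucleus. SDHA, the flavoprotein, had 138 and 143 CPM in CTRL, 154 and 159 in MN1, 144 and 148 in BEND2, 159 and 164 in MN1-BEND2, and 162 and 164 in MN1-CXXC5 libraries. It was the only one of the 4 called higher in MN1-CXXC5 cells (log2 change 0.21 ± 0.04, SE, edgeR adjusted p = 0.000401). SDHB, the iron-sulfur subunit, was higher in MN1 (118 and 113 CPM) and MN1-BEND2 cells (119 and 119) than in CTRL (99.2 and 97.8), by 0.23 ± 0.04 and 0.27 ± 0.04 on the log2 scale (SE, edgeR adjusted p = 0.000345 and 6.01e-05). SDHC, a membrane anchor, was called higher in MN1 cells (256 and 253 against 221 and 228 CPM; 0.18 ± 0.03, edgeR adjusted p = 0.000442). SDHD, the other anchor, lay between 64.8 and 74.7 CPM in all 10 libraries and was called in no comparison against CTRL. None of the 4 was called in BEND2 cells, where their changes ran from 0.00 to 0.05.

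Complex III passes electrons from coenzyme Q to cytochrome c. Of its 9 members, 8 were higher with MN1 (88.9%, against 21.6% of all genes) and none was lower. With MN1-BEND2 5 were higher (55.6%, against 26.7%) and with BEND2 2 (22.2%, against 6.71%), again with none lower. With MN1-CXXC5 4 were higher and 4 lower (44.4% each, against 19.2% and 25.1%). UQCRQ (chromosome 5, 132866560 to 132868031), a small subunit at the quinone-binding side, had 73.3 and 71.9 CPM in CTRL, 91.8 and 92.2 in MN1, 71.6 and 77.2 in BEND2, 83.8 and 82.0 in MN1-BEND2, and 38.5 and 38.2 in MN1-CXXC5 libraries. BEND2 overlapped with CTRL, and the MN1-CXXC5 libraries were lowest. The change with MN1-CXXC5 was -0.92 ± 0.05 (SE, edgeR adjusted p = 3.44e-08) and with MN1 0.34 ± 0.04 (3.02e-05). Exons of GDF9 on the other strand cover 20.8% of its length.

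The other members of complex III differed by subunit. UQCRC1, a core protein, had 95.8 and 96.2 CPM in CTRL, 106 and 106 in MN1, 119 and 118 in MN1-BEND2, and 67.5 and 70.7 in MN1-CXXC5 libraries, with a change of -0.47 ± 0.04 (SE, edgeR adjusted p = 8e-07) in the last. UQCRFS1, the Rieske iron-sulfur protein, was higher than its CTRL levels of 173 and 171 CPM in each group: 224 and 216 in MN1, 193 and 199 in BEND2, 224 and 226 in MN1-BEND2 and 201 and 204 in MN1-CXXC5 libraries. Its 4 changes were 0.35, 0.19, 0.39 and 0.24 on the log2 scale (edgeR adjusted p = 4.86e-06, 0.00315, 8.82e-07 and 0.000101). UQCRH, the hinge protein that helps cytochrome c dock, was higher in MN1 and MN1-CXXC5 cells (275 and 278, and 282 and 295, against 225 and 231 CPM) and not called in MN1-BEND2 cells (228 and 230). UQCRHL is a near-identical copy of UQCRH at 12.1 to 20.0 CPM, so reads can be split between them and the UQCRHL values are uncertain. Its calls in MN1 (0.43 ± 0.14, edgeR adjusted p = 0.0219) and MN1-CXXC5 cells (0.41 ± 0.14, 0.0286) were lost with single libraries left out, the first without CTRL replicate 2 (0.124), MN1 replicate 1 (0.0776) or MN1 replicate 2 (0.0791), the second without CTRL replicate 1 (0.0541), CTRL replicate 2 (0.146) or MN1-CXXC5 replicate 1 (0.47). UQCR10, a small accessory subunit, was higher with MN1 at 132 and 132 against 95 and 90.2 CPM (0.51 ± 0.04, SE, edgeR adjusted p = 1.76e-06) and at 119 and 116 CPM with MN1-BEND2 (0.34 ± 0.04, 1.93e-05). Its BEND2 call (0.16, edgeR adjusted p = 0.021) was lost without CTRL replicate 2 (0.157) or BEND2 replicate 1 (0.202).

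Complex IV, cytochrome c oxidase, had all 11 tested members higher in MN1 cells, with changes from 0.19 to 0.73. The share of all genes called higher there was 21.6%. MN1-BEND2 cells had 7 higher and 0 lower (63.6% and 0%, against 26.7% and 25.2% of all genes). MN1-CXXC5 cells had 1 higher and 7 lower (9.09% and 63.6%, against 19.2% and 25.1%), and BEND2 cells 3 and 0 (27.3% and 0%, against 6.71% and 7.46%). COX8A (chromosome 11, 63974607 to 63976543), a small subunit of complex IV, had 20.4 and 21.7 CPM in CTRL, 34.6 and 35.6 in MN1, 25.7 and 28.2 in BEND2, 25.1 and 26.6 in MN1-BEND2, and 7.74 and 7.62 in MN1-CXXC5 libraries. Every group lay apart from CTRL. The changes were 0.73 ± 0.06 (SE, edgeR adjusted p = 3.03e-06) in MN1, 0.34 ± 0.06 (0.0052) in BEND2, 0.29 ± 0.06 (0.00212) in MN1-BEND2 and -1.46 ± 0.08 (8.53e-08) in MN1-CXXC5 cells. DESeq2 did not call COX8A in BEND2 or MN1-BEND2 cells (adjusted p = 0.0608 and 0.0582), and the call in BEND2 cells was also lost without CTRL replicate 1 and MN1 replicate 1 together (edgeR adjusted p = 0.0628). Exons of AP000721.1 cover 34.5% of its length on the same strand.

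COX5B and COX5A, subunits of the matrix side, were the members of complex IV with the largest rises in MN1-BEND2 cells. COX5B had 55.4 and 58.3 CPM in CTRL, 66.4 and 67.8 in MN1, 65.3 and 66.7 in BEND2, 84.2 and 81.8 in MN1-BEND2, and 51.8 and 49.4 in MN1-CXXC5 libraries. It was highest in MN1-BEND2 cells, by 0.54 ± 0.04 against CTRL and 0.31 ± 0.04 against MN1 on the log2 scale (SE, edgeR adjusted p = 3.54e-07 and 5.66e-05). Its rise in BEND2 cells (0.21, edgeR adjusted p = 0.00637) was lost without CTRL replicate 1 (0.055). COX5A was called higher in each of the 3 groups with an MN1 sequence: 121 and 133 CPM in MN1, 127 and 124 in MN1-BEND2 and 118 and 124 in MN1-CXXC5 libraries, against 100 and 102 in CTRL.

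Several complex IV subunits exist as a widely expressed form and a form of muscle, lung or testis. COX4I1 lay between 207 and 270 CPM, while COX4I2 had no count in any library. COX6A1 lay between 42.6 and 69.4 CPM, and COX6A2 had 1 count in a single library. COX6B1 lay between 176 and 239 CPM, and COX6B2 between 0 and 0.69. COX7A2 lay between 91.4 and 135 CPM, and COX7A1 between 0.0535 and 0.365. COX7B lay between 113 and 169 CPM, and COX7B2 had 1 count in each of 2 libraries. COX8A is given above, and COX8C had no count. None of the 6 tissue forms, nor ATP5MGL with 1 count in all, had enough counts to test in any group. No count in a library allows a level of up to 0.112 to 0.189 CPM (3 counts of the library's raw total, counting error only).

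COX6A1, whose promoter is printed above, fell in MN1-CXXC5 cells to 45.7 and 42.6 CPM from 61.8 and 56.9 in CTRL (-0.42 ± 0.06, SE, edgeR adjusted p = 8.05e-05). Its rise in MN1 cells, to 69.4 and 68 CPM (0.21, edgeR adjusted p = 0.00636), was lost without CTRL replicate 2 (0.0795). COX7A2 fell in MN1-CXXC5 cells to 91.4 and 95.6 from 111 and 111 CPM (-0.25 ± 0.04, edgeR adjusted p = 0.000458). COX7C rose with MN1 to 359 and 347 from 252 and 254 CPM (0.48 ± 0.04, edgeR adjusted p = 8.29e-07), and was also called higher with BEND2 at 290 and 293 CPM (0.20 ± 0.04, edgeR adjusted p = 0.00319).

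Complex V had 15 of 19 tested members higher with MN1 and 0 lower (78.9% and 0%, against 21.6% and 21.4% of all genes). With MN1-BEND2 the counts were 10 and 3 (52.6% and 15.8%, against 26.7% and 25.2%). With MN1-CXXC5 they were 3 and 7 (15.8% and 36.8%, against 19.2% and 25.1%), and with BEND2 8 and 0 (42.1% and 0%, against 6.71% and 7.46%). All 5 subunits of the catalytic F1 part, ATP5F1A to ATP5F1E, were higher in MN1 cells. In MN1-CXXC5 cells 3 of these 5 were lower and 0 higher. ATP5F1D, the delta subunit (chromosome 19, 1241746 to 1244826), had 9.88 and 9.36 CPM in CTRL, 15.2 and 16.9 in MN1, 14.1 and 14.1 in BEND2, 14.5 and 14.0 in MN1-BEND2, and 5.97 and 5.61 in MN1-CXXC5 libraries. CTRL lay between MN1-CXXC5 and the other 3 groups without overlap. Its changes were 0.74 ± 0.09 (SE, edgeR adjusted p = 2.86e-05) in MN1, 0.55 ± 0.09 (0.00197) in BEND2, 0.57 ± 0.09 (0.000137) in MN1-BEND2 and -0.73 ± 0.10 (9.37e-05) in MN1-CXXC5 cells.

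ATP5F1E, the epsilon subunit that sits beside delta in the central stalk, is GC-poor and followed the same order of CTRL and MN1-CXXC5. It had 94.4 and 97.5 CPM in CTRL, 133 and 137 in MN1, 118 and 119 in BEND2, 108 and 110 in MN1-BEND2, and 70.0 and 72.6 in MN1-CXXC5 libraries. No pair of groups overlapped. The changes were 0.49 ± 0.03 (SE, edgeR adjusted p = 6.34e-07) in MN1 and -0.43 ± 0.04 (2.75e-06) in MN1-CXXC5 cells.

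The c ring that turns with the proton flow is built from 1 protein that 3 genes encode (ATP5MC1, ATP5MC2 and ATP5MC3). ATP5MC1 (chromosome 17, 48892765 to 48895871) had 49.4 and 46.8 CPM in CTRL, 79.5 and 76.4 in MN1, 59.7 and 55.8 in BEND2, 74.8 and 69.2 in MN1-BEND2, and 55.8 and 52.2 in MN1-CXXC5 libraries. ATP5MC2 had 113 and 111 CPM in CTRL, 147 and 140 in MN1, 114 and 110 in BEND2, 122 and 117 in MN1-BEND2, and 67.3 and 66.8 in MN1-CXXC5 libraries. In MN1-CXXC5 cells ATP5MC2 fell by 0.74 ± 0.04 on the log2 scale (SE, edgeR adjusted p = 7.93e-08) and ATP5MC1 changed by 0.17 ± 0.06 (0.0317). The difference between the 2 genes was not tested. The ATP5MC1 call was lost without CTRL replicate 2 (edgeR adjusted p = 0.191) or MN1-CXXC5 replicate 1 (0.214). In BEND2 cells the ATP5MC1 rise of 0.27 (edgeR adjusted p = 0.00793) was lost without CTRL replicate 2 (0.0693) or BEND2 replicate 1 (0.0966).

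ATP5IF1 (chromosome 1, 28236109 to 28246906) encodes the protein that blocks the ATP synthase from running backwards. It had 69.7 and 76.8 CPM in CTRL, 87.6 and 95.9 in MN1, 81.4 and 84.3 in BEND2, 132 and 131 in MN1-BEND2, and 66.2 and 65.5 in MN1-CXXC5 libraries. The MN1-BEND2 libraries lay far above the other 8. The rise there was 0.84 ± 0.05 against CTRL (SE, edgeR adjusted p = 5.46e-08), 0.52 ± 0.05 against MN1 (3.88e-06), 0.67 ± 0.05 against BEND2 (5.34e-07) and 1.00 ± 0.05 against MN1-CXXC5 cells (1.65e-08) on the log2 scale. With GC content and length modelled these were 0.79, 0.43, 0.60 and 0.89. Its calls against CTRL in BEND2 (0.17, edgeR adjusted p = 0.0476) and MN1-CXXC5 cells (-0.16, 0.0345) were each lost with single libraries left out: without CTRL replicate 1 (0.291), BEND2 replicate 1 (0.118) or BEND2 replicate 2 (0.21), and without CTRL replicate 2 (0.301), MN1-CXXC5 replicate 1 (0.0891) or MN1-CXXC5 replicate 2 (0.13).

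ATP5S (chromosome 14, 50312326 to 50335558) moved in the opposite direction in the same cells. Its 22.9 and 20.0 CPM in MN1-BEND2 libraries lay below 34.3 and 33.5 in CTRL, 31.3 and 32.0 in MN1, 32.8 and 30.9 in BEND2 and 36.9 and 33.6 in MN1-CXXC5 libraries. It fell by 0.67 ± 0.07 against CTRL (SE, edgeR adjusted p = 5.3e-06). ATP5MD, a small membrane subunit that links ATP synthase dimers, was higher in MN1 (136 and 130 CPM) and MN1-BEND2 libraries (136 and 126) than in CTRL (98.5 and 96.9), by 0.45 and 0.42 on the log2 scale (edgeR adjusted p = 4.35e-06 and 2.99e-06). Its smaller calls in MN1-CXXC5 (0.15, edgeR adjusted p = 0.0094) and BEND2 cells (0.13, 0.0491) were lost, the first without CTRL replicate 2 (0.0586) and the second without any 1 of its 4 libraries (0.122 to 0.195). ATP5MG, the g subunit of the dimer interface, was called lower in MN1-BEND2 cells at 39.2 and 38.3 against 42.1 and 43.2 CPM (-0.14 ± 0.04, edgeR adjusted p = 0.00994). That call was lost without CTRL replicate 2 (0.102) or MN1-BEND2 replicate 2 (0.0933), and with GC content and length modelled the change was -0.025 (edgeR adjusted p = 0.677).

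**Figure D4:**
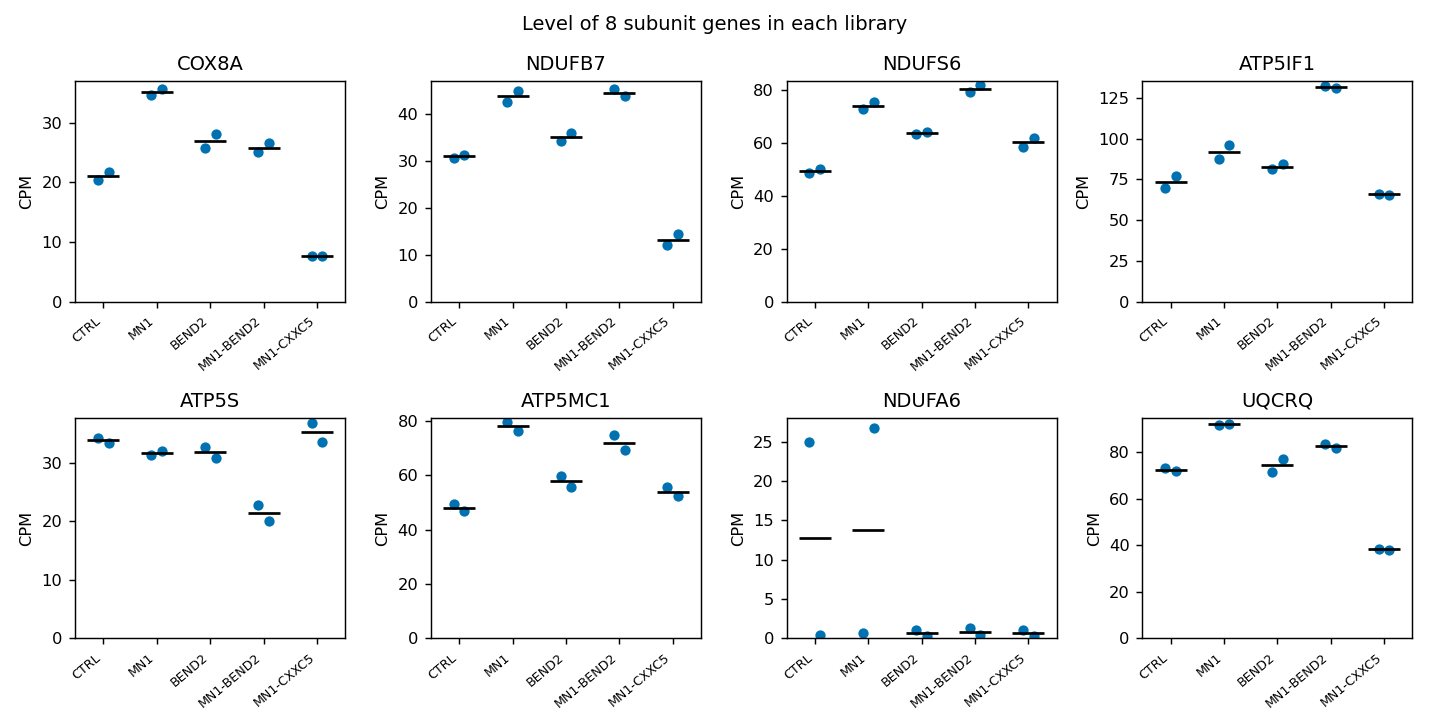
CPM of 8 genes in each library, by group, with bars at the mean of 2 libraries and axes that start at 0. COX8A, NDUFB7 and UQCRQ are lowest with MN1-CXXC5, ATP5IF1 is highest (132 and 131 CPM) and ATP5S lowest (22.9 and 20.0 CPM) with MN1-BEND2, and the 2 libraries of NDUFA6 disagree in CTRL and in MN1.

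Levels can be compared between genes only per length, here as TPM (transcripts per 1000000, from exon-union lengths). In CTRL cells the mean level was 1168 TPM for ATP5F1B, the catalytic beta subunit, 927 TPM for NDUFS5 and 652 TPM for COX6B1. It was 2.63 TPM for NDUFV2, 2.22 TPM for NDUFA13 and 0.542 TPM for NDUFA3, the lowest of the tested members. ATP5F1B, NDUFS5 and NDUFA3 were named here after their values were seen. Of the 86 members, 34 have exons that overlap another gene over at least 10% of their length, and 45 have a pseudogene named after them. How shared or multiply mapped reads were counted is not given in the sources used here, so these levels are uncertain.

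Over all genes, changes against CTRL followed base composition in each line, most in the fusion lines. In the fusion lines the changes of the members followed it too. GC content here is that of all annotated exons. Among the 18127 tested genes split by GC content into 5 bins of equal size, the bin from 57.7% to 76% had a median log2 fold change of -0.40 in MN1-CXXC5 and 0.27 in MN1-BEND2 cells against CTRL. The 12 members in that bin had medians of -0.62 and 0.39. The bin from 23.1% to 41.9% GC had medians of 0.07 and -0.22 over all genes, and of 0.06 and 0.08 over its 7 members. In MN1 cells the same medians were 0.12 and 0.42 (all genes and members) in the GC-richest bin, and -0.09 and 0.44 in the GC-poorest bin. The members' median in MN1 cells was thus above that of all genes in both bins. In BEND2 cells the medians were 0.13 and 0.18 (all genes and members) in the GC-richest bin, and -0.07 and 0.10 in the GC-poorest. GC content was correlated with the log2 fold change across the 79 members, which share libraries and depth. The correlation was -0.33 in MN1-CXXC5, 0.31 in MN1-BEND2, 0.21 in MN1 and 0.16 in BEND2 cells. Over all tested genes it was -0.34, 0.24, 0.10 and 0.18 in the same order.

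A fit that takes GC content and length into account, by offsets for each library, shows how much of each count moved with them. In MN1 cells 62 members were higher and 0 lower (21.7% and 19.6% of all genes), and all 59 of the first fit kept their call. In MN1-BEND2 cells 34 were higher and 3 lower (20.5% and 26.1% of all genes), with 30 of the 45 kept. In MN1-CXXC5 cells 16 were higher and 24 lower (18.7% and 20.1%), with 12 of 17 and 21 of 33 kept. In BEND2 cells 16 were higher and 0 lower (4.12% and 4.89%), with 15 of 21 kept. Why fold changes followed GC content was not tested.

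Single genes behaved differently under this fit. In MN1-CXXC5 cells COX8A kept a change of -1.22, UQCRQ -0.81, ATP5MC2 -0.63 and ATP5F1E -0.50 (edgeR adjusted p = 2.06e-06, 2.2e-07, 2.44e-07 and 1.99e-06). NDUFB7 went from -1.23 to -0.71 and NDUFS7 from -1.12 to -0.65. ATP5F1D, with the highest GC content of the members printed above, went from -0.73 to -0.04 (edgeR adjusted p = 0.828). In MN1-BEND2 cells NDUFB7 went from 0.52 to 0.14, ATP5F1D from 0.57 to 0.16 and COX8A from 0.29 to 0.04, none of them called (0.113, 0.143 and 0.683), while NDUFS6 was at 0.55 and ATP5IF1 at 0.79.

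Set against each other, the fusions differed widely at these genes. MN1-BEND2 cells had 46 members higher and 14 lower than MN1-CXXC5 cells (31.1% and 27.5% of all genes), with a median of 0.27 on the log2 scale against 0.02 over all genes. The largest differences were COX8A (1.75 ± 0.08, SE, edgeR adjusted p = 5.35e-09), NDUFB7 (1.75 ± 0.07, 2.63e-09) and NDUFS7 (1.71 ± 0.10, 4.26e-08) in one direction and NDUFV2 (-1.31 ± 0.21, 0.000174), ATP5S (-0.73 ± 0.07, 2.43e-06) and UQCRB, a quinone-side subunit of complex III (-0.40 ± 0.06, 0.000145), in the other. With GC content and length modelled, 39 members were higher and 9 lower (20.7% and 25% of all genes). COX8A was then at 1.26, NDUFB7 at 0.85, NDUFS7 at 0.88 and UQCRB at -0.09. The correlation of GC content with this difference was 0.68 across the 79 members and 0.51 over all tested genes. With the offsets, which are fitted to take out such a trend, it was 0.16 across the members.

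Against MN1 without a fusion partner, both fusion lines had lower levels of many members. MN1-CXXC5 cells had 55 members lower and 2 higher than MN1 cells (25.5% and 23.3% of all genes), with a median of -0.26 on the log2 scale. The largest falls were COX8A (-2.19 ± 0.08, SE, edgeR adjusted p = 1.52e-09), NDUFB7 (-1.73 ± 0.07, 5.36e-09) and NDUFS7 (-1.71 ± 0.10, 8.3e-08). Without MN1 replicate 2 the count higher was 1 (18.8% of all genes). The 2 members higher were NDUFB5 (0.18 ± 0.05) and NDUFA5 (0.16 ± 0.03). The NDUFB5 call was lost without MN1 replicate 2 (edgeR adjusted p = 0.0615) or MN1-CXXC5 replicate 1 (0.0665), and the NDUFA5 difference was -0.08 with GC content and length modelled. MN1-BEND2 cells had 37 members lower and 8 higher than MN1 cells (23.2% of all genes in each direction), with a median of -0.14. The largest falls were NDUFV2, ATP5S (-0.57 ± 0.07, edgeR adjusted p = 3.25e-05) and COX8A (-0.44 ± 0.06, 9.68e-05), and the largest rises NDUFA13, ATP5IF1 and COX5B. The NDUFV2 call (-0.85) was lost without MN1-BEND2 replicate 1 (edgeR adjusted p = 0.0826), and the NDUFA13 call (0.63) without MN1 replicate 1 (0.075), MN1 replicate 2 (0.145) or MN1-BEND2 replicate 1 (0.204). With GC content and length modelled the NDUFA13 difference was 0.42 (edgeR adjusted p = 0.13). The count higher was 4 without MN1 replicate 1 (17.7% of all genes) and 5 without MN1-BEND2 replicate 2 (18.2%), and DESeq2 called 24 lower and 4 higher (15.9% and 13.6% of all genes).

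MN1-BEND2 cells had 28 members higher and 7 lower than BEND2 cells (21.7% and 21.9% of all genes), with a median of 0.10. The largest rises were ATP5IF1 (0.67 ± 0.05), NDUFB7 (0.35 ± 0.06) and NDUFS6 (0.34 ± 0.04) on the log2 scale (SE, edgeR adjusted p = 5.34e-07, 0.000416 and 2.73e-05), and the largest falls NDUFV2 (-0.90 ± 0.21, 0.00464), ATP5S (-0.58 ± 0.07, 2.63e-05) and NDUFS1 (-0.20 ± 0.03, 0.000255). The NDUFV2 call was lost without MN1-BEND2 replicate 1 (edgeR adjusted p = 0.0547). The correlation of GC content with this difference was 0.45 across the 79 members and 0.16 over all tested genes. With GC content and length modelled NDUFB7 was at 0.16 and no longer called (edgeR adjusted p = 0.0783), and 18 members were higher. The count higher was 17 without BEND2 replicate 1 (15.2% of all genes) and 18 by DESeq2 (12.8%). The count lower was 4 without BEND2 replicate 2 (17.6% of all genes), 3 without MN1-BEND2 replicate 1 (17.3%) and 2 by DESeq2 (13.9%).

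The 13 mitochondrially encoded subunits, which form the core of the same complexes, gave another order of the groups. Their summed level was 36731 and 40565 CPM in CTRL, 39076 and 45067 in MN1, 40051 and 42854 in BEND2, 44865 and 47848 in MN1-BEND2, and 46846 and 50707 in MN1-CXXC5 libraries. By mean the order ran from CTRL through BEND2, MN1 and MN1-BEND2 to MN1-CXXC5, and neighbours in it overlapped. In every group replicate 2 lay above replicate 1, for this sum and for the ratio given next. Among libraries of the same number, the sum was lowest in CTRL, highest in MN1-CXXC5 and next to highest in MN1-BEND2 cells. The labels do not say what a number marks, so this order does not rest on known pairs. The ratio of mitochondrial to nuclear sums was 4.70 and 5.19 in CTRL, 4.13 and 4.77 in MN1, 4.93 and 5.21 in BEND2, 5.17 and 5.50 in MN1-BEND2, and 6.12 and 6.56 in MN1-CXXC5 libraries, so that the MN1-CXXC5 libraries lay above the other 8. Gene by gene, 11 of the 13 were higher in MN1-CXXC5, 9 in MN1-BEND2, 3 in MN1 and 0 in BEND2 cells, and none was called lower against CTRL. The shares higher were 84.6%, 69.2%, 23.1% and 0%, against 19.2%, 26.7%, 21.6% and 6.71% of all genes, so that of MN1 was close to all genes. Without CTRL replicate 1 and MN1 replicate 1, fewer of the 13 were called higher in MN1-BEND2 cells and more in MN1 cells. That fit kept 1 library each of CTRL and MN1, in both groups the one with the higher sum. The MN1 share thus depended on the libraries kept. MT-ND2 rose by 0.67 ± 0.09 and MT-ATP6 by 0.69 ± 0.12 with MN1-CXXC5 (SE, edgeR adjusted p = 0.000115 and 0.000456).

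Subunits and carriers that the symbol rule leaves out were 10 genes. With MN1, 9 were higher and 1 lower (90% and 10%, against 21.6% and 21.4% of all genes). The counts were 6 and 1 with MN1-BEND2 (60% and 10%, against 26.7% and 25.2%). They were 1 and 4 with MN1-CXXC5 (10% and 40%, against 19.2% and 25.1%), and 1 and 0 with BEND2 (10% and 0%, against 6.71% and 7.46%). Without CTRL replicate 1 and MN1 replicate 1, fewer were called higher with MN1, and fewer over all genes as well. CYC1, the cytochrome c1 of complex III, rose by 0.32 ± 0.05 in MN1 and fell by 0.80 ± 0.05 with MN1-CXXC5 on the log2 scale (SE, edgeR adjusted p = 0.00017 and 3.22e-07). The CYC1 changes were 0.24 and -0.30 with GC content and length modelled. NDUFAB1, the acyl carrier protein of complex I, rose by 0.55 ± 0.04 in MN1 and fell by 0.34 ± 0.04 in MN1-CXXC5 cells (5.82e-07 and 4.34e-05 with edgeR). COX7A2L, which helps join complexes III and IV, rose by 0.93 ± 0.05 in MN1-BEND2 cells (edgeR adjusted p = 1.08e-08). NDUFA4L2, a hypoxia-inducible paralog of NDUFA4, fell in MN1 (-1.04 ± 0.26), MN1-BEND2 (-1.10 ± 0.25) and MN1-CXXC5 cells (-1.28 ± 0.26; edgeR adjusted p = 0.00568, 0.00278 and 0.00187). The NDUFA4L2 call in MN1 cells was lost without CTRL replicate 2 (edgeR adjusted p = 0.0593), and in MN1-CXXC5 cells the change was -0.78 with GC content and length modelled (0.0358).

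Assembly factors put the complexes together. Of the 24 tested for complex IV, 7 were higher and 4 lower with MN1 (29.2% and 16.7%, against 21.6% and 21.4% of all genes) and 6 and 8 with MN1-CXXC5 (25% and 33.3%, against 19.2% and 25.1%). With MN1-BEND2 11 were higher and 0 lower (45.8% and 0%, against 26.7% and 25.2%), and with BEND2 4 and 0 (16.7% and 0%, against 6.71% and 7.46%). Without CTRL replicate 1 and MN1 replicate 1, fewer were called higher with MN1 and lower with MN1-CXXC5, and fewer over all genes as well. SLIRP, which stabilises mitochondrial mRNAs with LRPPRC, rose by 0.68 ± 0.04 in MN1, 0.72 ± 0.04 in MN1-BEND2, 0.28 ± 0.05 in MN1-CXXC5 and 0.39 ± 0.04 in BEND2 cells (SE, edgeR adjusted p = 3.03e-07, 5.2e-08, 0.000302 and 0.000368). COA3, needed for the translation and early assembly of COX1, rose by 0.79 ± 0.06 in MN1 and 0.74 ± 0.05 in MN1-BEND2 cells (edgeR adjusted p = 6.15e-07 and 3.17e-07). Of the 17 for complex I, 6 were higher and 1 lower with MN1 (35.3% and 5.88%), 5 and 2 in MN1-BEND2 (29.4% and 11.8%), 3 and 7 in MN1-CXXC5 (17.6% and 41.2%), and 2 and 1 with BEND2 (11.8% and 5.88%), to be read against the same shares of all genes. NDUFAF4, an early complex I assembly factor, fell in each comparison against CTRL: by 0.63 in MN1, 0.44 in MN1-BEND2, 0.39 in MN1-CXXC5 and 0.31 in BEND2 cells (edgeR adjusted p = 1.42e-07, 6.37e-07, 4.42e-06 and 0.000349). With GC content and length modelled the NDUFAF4 change in MN1-BEND2 cells was -0.24. NDUFAF3, its partner, rose by 0.64 in MN1 and 0.50 with MN1-BEND2 and fell by 0.99 with MN1-CXXC5 (edgeR adjusted p = 8.46e-06, 3.32e-05 and 1.15e-06). The last 2 NDUFAF3 changes were 0.215 and -0.52 with GC content and length modelled.

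Of the tested assembly factors, MN1 cells had 0 higher and 2 lower of 4 for complex II, 1 and 2 of 6 for complex III, and 1 and 1 of 5 for complex V (21.6% and 21.4% of all genes). TMEM242, which takes part in c ring assembly, fell in each comparison against CTRL, by 0.51 in MN1, 0.35 in MN1-BEND2, 0.42 in MN1-CXXC5 and 0.31 in BEND2 cells (edgeR adjusted p = 1.76e-06, 1.08e-05, 7.5e-06 and 0.000688). Of 10 coenzyme Q genes, 2 were higher and 1 lower with MN1 (20% and 10%, against 21.6% and 21.4% of all genes). With MN1-BEND2 3 were higher and 6 lower (30% and 60%, against 26.7% and 25.2%). With MN1-CXXC5 1 was higher and 4 lower (10% and 40%, against 19.2% and 25.1%). Without CTRL replicate 1 and MN1 replicate 1, fewer were called in either direction with MN1-BEND2 and fewer lower with MN1-CXXC5. Calls over all genes were fewer there too. COQ5, a methyltransferase of that pathway, fell by 1.49 ± 0.09 with MN1-BEND2 (SE, edgeR adjusted p = 6.54e-08).

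Of 13 tested transcription regulators of respiratory genes, 2 were higher and 7 lower with MN1 (15.4% and 53.8%, against 21.6% and 21.4% of all genes), and 5 and 6 with MN1-BEND2 (38.5% and 46.2%, against 26.7% and 25.2%). With MN1-CXXC5 4 were higher and 4 lower (30.8% each, against 19.2% and 25.1%), and with BEND2 2 and 0 (15.4% and 0%, against 6.71% and 7.46%). Without CTRL replicate 1 and MN1 replicate 1, fewer were called lower with MN1 and higher with MN1-CXXC5. Calls over all genes were fewer in these directions too. TFAM, which binds and packages mitochondrial DNA, fell by 0.17 ± 0.03 in MN1 and 0.52 ± 0.03 with MN1-BEND2 (SE, edgeR adjusted p = 0.00046 and 2.54e-08), and by 0.10 and 0.36 with GC content and length modelled. NRF1, a regulator of many subunit genes, fell by 0.34 ± 0.08 in MN1 and 0.51 ± 0.08 in MN1-CXXC5 cells (edgeR adjusted p = 0.00311 and 0.000222). ESRRA, a nuclear receptor that acts with PGC-1 coactivators, fell by 0.87 ± 0.10 in MN1-CXXC5 cells (edgeR adjusted p = 2.34e-05), and by 0.32 with GC content and length modelled (0.023). POLRMT, the mitochondrial RNA polymerase, rose by 0.31 ± 0.05 in MN1 and 0.58 ± 0.05 with MN1-BEND2 and fell by 0.48 ± 0.06 with MN1-CXXC5 (edgeR adjusted p = 0.000384, 9.73e-07 and 2.94e-05). The POLRMT changes were 0.19, 0.22 and 0.04 with GC content and length modelled, and the last was not called (edgeR adjusted p = 0.665).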

How the data were processed

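Total RNA of 10 libraries (5 groups of 2) was extracted with Trizol, prepared with the VAHTS Universal V6 kit and sequenced as 150-base pairs on a DNBSEQ-T7, per the labels' protocols. HISAT2, SAMtools 1.0.1 and featureCounts 2.0.0 with GRCh38 (hg38) are named in the submitters' processing notes (their options, including strand, and the gene annotation: not given in the sources used here). The deposited values are raw counts per gene (58261 lines for 58216 identifiers, 45 of them with 2 lines, which were summed).

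All 10 libraries entered 1 model with group as its only term (edgeR 4.0.16, R 4.3.3; TMM, filterByExpr, 5 residual degrees of freedom). Genes were tested by the quasi-likelihood method, with Benjamini-Hochberg adjustment over 18127 genes and a threshold of 0.05. The common biological coefficient of variation was 0.0404. The 2 libraries of a group correlated at 0.991 to 0.993 (log2 CPM) and differed by more than sampling noise (chi-square per degree of freedom 2.21 to 3.69, over genes with more than 30 counts in both libraries together). Positions, exon-union lengths and GC content came from GENCODE release 29. Alternatives were DESeq2 1.42.0, DESeq2 size factors, library totals, no filter, only the 2 groups compared, GC and length offsets (mgcv 1.9.3), a replicate block, each library left out, and CTRL replicate 1 and MN1 replicate 1 left out together, the last chosen after seeing the data.

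For each comparison against CTRL and each complex, the 2 largest rises and 2 largest falls among called members without overlap between groups were named, and the 3 largest each way for comparisons between constructs. Tissue isoform pairs, the SDH genes, the ATP synthase inhibitor, untested members and members called the same way in all 4 comparisons against CTRL were named as well, with up to 4 genes of a pathway list per comparison. The members and lists were chosen with earlier results of these data known.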

Additional observations from a re-analysis of the deposited data

How the results depend on the processing

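With 2 libraries a group, depths of 15914424 to 26799613 counts and 5 residual degrees of freedom, calls of small changes were lost with single libraries left out. Counts are of the 79 tested members (79 or 80 with libraries left out), higher or lower in the first group named. Brackets hold the share of all genes called in the same direction. Under DESeq2, MN1-BEND2 against CTRL had 4 lower (18.2%), MN1-CXXC5 against CTRL 21 lower (14.6%) and MN1 against CTRL 0 lower (13.2%). BEND2 against CTRL had 5 higher and 0 lower (1.91% and 2.84%), and MN1-BEND2 against MN1 4 higher and 24 lower (13.6% and 15.9%). MN1-BEND2 against BEND2 had 18 higher and 2 lower (12.8% and 13.9%), and MN1-CXXC5 against MN1 1 higher (16.2%). With GC and length offsets, MN1-BEND2 against CTRL had 3 lower (26.1%), and MN1 and BEND2 against CTRL 0 lower each (19.6% and 4.89%). MN1-BEND2 had 9 lower against MN1-CXXC5 (25.0%), 3 higher against MN1 (19.3%) and 18 higher against BEND2 (17.5%). MN1-CXXC5 against MN1 had 1 higher (18.5%). Without the filter on low counts MN1-CXXC5 against MN1 had 4 higher (12.3%), and with only the 2 groups compared MN1 against CTRL had 0 lower (20.9%). The cause was not tested. With 1 library left out, or with CTRL replicate 1 and MN1 replicate 1 left out together, fewer calls were made over all genes as well. This held in each comparison and direction listed next. A smaller count of members there is therefore no result about the members alone. With 1 library left out, the ranges were 4 to 5 lower for MN1-BEND2 against CTRL, 0 lower for MN1 against CTRL, 9 to 12 higher and 0 to 1 lower for BEND2 against CTRL, 4 to 8 higher for MN1-BEND2 against MN1, 17 to 28 higher and 3 to 6 lower for MN1-BEND2 against BEND2, and 1 to 3 higher for MN1-CXXC5 against MN1. Without CTRL replicate 1 and MN1 replicate 1 together, MN1-BEND2 against CTRL had 7 lower, MN1 against CTRL 0 lower, BEND2 against CTRL 9 higher and 0 lower, and MN1-BEND2 against MN1 4 higher.

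Among values called in the main or the alternative fit, log2 fold changes of named members changed sign only with GC and length offsets. Sign changes of values called in neither fit were not counted. NDUFA5 changed sign in MN1-BEND2 (0.10) and MN1-CXXC5 (-0.10) against CTRL, MN1-BEND2 against MN1-CXXC5 (0.20) and MN1-CXXC5 against MN1 (-0.08). NDUFS1 (-0.055) and SDHC (-0.11) did in MN1-CXXC5 against CTRL, and SDHC (0.11) and COX6B1 (-0.065) in MN1-BEND2 against MN1-CXXC5. In MN1-BEND2 against MN1, NDUFB7 (-0.21), NDUFS6 (-0.012), NDUFS7 (-0.24) and UQCRC1 (-0.012) did. Of the 296 values of named members with a test, 228 kept their side of the threshold and, where called, their direction with these offsets. With the replicate block 273 did.

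Same-numbered libraries deviated together with correlations of 0.0659 to 0.29 over the 10 pairs of groups, over 0.1 in all but MN1 with BEND2, and the labels name nothing that a number marks, so the numbers were not taken to pair the libraries. With the replicate block, 2 members were lower in MN1 and 2 in BEND2 against CTRL, and 5 were higher in MN1-CXXC5 against MN1. Calls over all genes rose in these directions too, from 3877 to 4334, 1352 to 2183 and 4216 to 4712 of 18127. BEND2 against CTRL had 30 higher (10.9%), and every other count was within 1.5 times the value without the block.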
